A study of Mus musculus with 20 samples.

Results

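The regions described here carried an m6A peak in both Mettl3 control libraries and in both Ythdc1 cKO libraries, and no peak in the Mettl3 KO1, Mettl3 KO2 and Ythdc1 control libraries. N6-methyladenosine (m6A) is a methyl mark on adenosines inside RNA. There were 662 such regions among 87551 regions merged, strand by strand, from the peaks of 10 immunoprecipitated libraries, or 0.756% of all. They were chosen by the presence and absence of deposited peaks in all 10 libraries, so what that choice fixed is given as description, with no test.

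The cells were C57BL/6 mouse embryonic stem cells, grown in serum with LIF at 1000 U/ml, the GSK3 inhibitor CHIR99021 at 3 µM and the MEK inhibitor PD0325901 at 1 µM. The 5 groups were a Mettl3 control, the knockouts Mettl3 KO1 and Mettl3 KO2, a Ythdc1 control and a Ythdc1 conditional knockout (cKO). Each had 2 m6A immunoprecipitations of ribosome-depleted, chromatin-associated RNA, and their inputs were not analysed here. The sources used here do not say how the deletions were made, how the controls differ from each other, or whether the 2 libraries of a group are separate cultures.

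METTL3 is the catalytic subunit of the nuclear methyltransferase complex that writes m6A, mostly at adenosines in a GGAC-like sequence. YTHDC1 is the reader that binds m6A inside the nucleus, with known roles in splicing, in nuclear export and, on chromatin-associated RNA of promoters, enhancers and repeats, in the decay of methylated transcripts through the nuclear exosome. A peak records enrichment in the immunoprecipitate. Without the inputs, more RNA and more m6A per RNA cannot be told apart, nor can less RNA per cell and fewer cells with that RNA.

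Exon sequences around 6 of the regions are shown because they are among the highest peaks in exons of genes with a known product and hold the strongest summit. Each is the mature RNA strand of a GENCODE M21 transcript on GRCm38 (mm10), at most 50 nt to each side of the strongest summit and cut at the exon end, with GGAC in capitals.
Ccser1, chr6:61313654-61313716, plus strand: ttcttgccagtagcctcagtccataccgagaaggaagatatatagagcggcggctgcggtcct
Stox1, chr10:62664683-62664783, minus strand: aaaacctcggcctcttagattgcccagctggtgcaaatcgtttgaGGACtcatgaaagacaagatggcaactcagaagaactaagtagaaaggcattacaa
Tbx18, chr9:87705231-87705331, minus strand: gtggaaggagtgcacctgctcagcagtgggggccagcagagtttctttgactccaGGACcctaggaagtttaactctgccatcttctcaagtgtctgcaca
Lcat, chr8:105939659-105939759, minus strand: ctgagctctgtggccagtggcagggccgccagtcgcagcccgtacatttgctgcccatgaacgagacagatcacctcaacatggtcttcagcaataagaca
Xist, chrX:103482153-103482253, minus strand: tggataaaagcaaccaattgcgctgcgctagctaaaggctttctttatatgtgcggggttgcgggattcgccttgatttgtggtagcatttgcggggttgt
Sema3c, chr5:17727540-17727640, plus strand: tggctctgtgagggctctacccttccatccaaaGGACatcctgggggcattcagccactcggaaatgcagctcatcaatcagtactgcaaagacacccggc
Of these, Stox1, Tbx18 and Sema3c held 1 GGAC each, and the windows of Ccser1, Lcat and Xist held none. The windows lay in coding exons except that of Xist, which lay in a non-coding exon. The 4-letter sequence was searched on the RNA strand only.

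Windows of 101 nt were taken around summits in coding exons and in exons of non-coding transcripts, and UTR regions were left out. Of the 39 such regions 38 had a full window, and 16 held GGAC, or 42.1% (Wilson 95% interval, which covers counting error only, 27.9 to 57.8). In the same 2 exon classes the share was 53.2% for all regions lost in the Mettl3 knockouts, 51.8% for regions in all 10 lists and 48.5% for all regions. The longer GGACT, which contains GGAC, stood in 6 of the 38 windows (15.8%) and in 15.7% of all windows. The GGAC interval for the 38 windows holds each of the other GGAC shares, and their GGACT interval (7.44 to 30.4) holds the 15.7%.

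A pair of promoters, chosen after the regions were known, is shown because a region overlapped them. The region with the Mdh1 name lies antisense to Mdh1, the cytosolic malate dehydrogenase, on the strand of the divergent gene Wdpcp, a planar cell polarity effector. The region with the Ccdc77 name lies in an intron of Ccdc77, a coiled-coil protein gene, and spans a RefSeq start of the same gene. The sequences are the overlapping parts of RefSeq promoter windows (GRCm38.p6, from 250 bases before to 50 after a start), of which only bases before the start are printed, on the strand of the gene, with GGAC in capitals.
Wdpcp promoter, chr11:21572097-21572280, plus strand: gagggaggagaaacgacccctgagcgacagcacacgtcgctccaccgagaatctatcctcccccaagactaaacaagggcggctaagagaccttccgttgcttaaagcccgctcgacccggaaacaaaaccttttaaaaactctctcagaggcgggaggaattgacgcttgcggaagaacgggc
Ccdc77 promoter, chr6:120364370-120364506, minus strand: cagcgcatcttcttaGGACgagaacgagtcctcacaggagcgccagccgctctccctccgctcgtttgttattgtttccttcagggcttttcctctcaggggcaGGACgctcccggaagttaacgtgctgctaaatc
The Wdpcp stretch held no GGAC, and the same stretch held it in 47.6% of 32851 promoter windows. The Ccdc77 stretch held 2, and 38.5% of windows had at least 1 there. These are letter matches, not mapped m6A sites.

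In the 4 lists that hold them, the authors' fold enrichment at the summit, over the background of the peak caller, placed most of the regions in the lower or middle range. The strongest peak per region had a median fold of 4.14 and 4.12 in the 2 Mettl3 controls, with ranges of 2.24 to 8.53 and 1.87 to 8.07. In the 2 cKO libraries the medians were 5.09 and 4.93, with ranges of 2.20 to 13.7 and 2.19 to 13.5. Within their own lists these peaks stood at a median percentile of 37.3 and 40.4 in the controls and of 57.2 and 54.1 in the cKO. Over all peaks, regions that met the rule except for a peak in both Ythdc1 controls had a like step. Their median folds were 4.36 and 4.30 in the Mettl3 controls and 5.21 and 5.30 in the cKO. Regions in all 8 lists but the Ythdc1 controls had the opposite order, 5.85 and 5.53, then 4.55 and 4.61. The control and cKO lists were made separately, so the order of these values shows no change in m6A. Replicates of a group gave like values, with a median ratio of the higher to the lower fold of 1.13 between Mettl3 controls and 1.12 between cKO libraries.

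**Figure D1:**
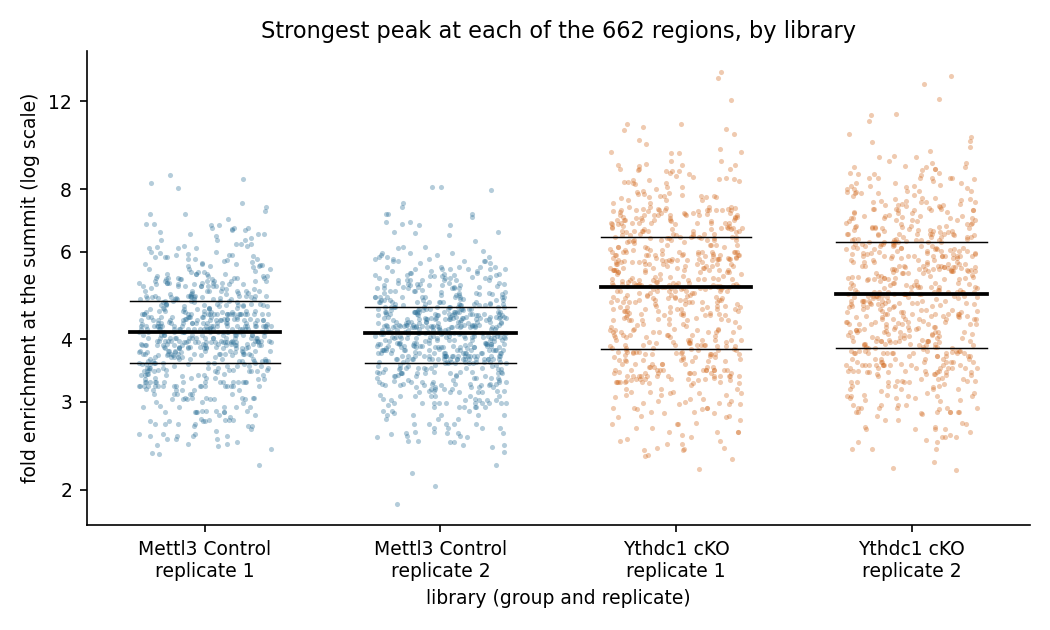
Fold enrichment at the summit (log scale) of the strongest peak at each of the 662 regions, in the 4 libraries that had a peak there; thick lines are medians and thin lines quartiles. The medians are 4.14, 4.12, 5.09 and 4.93, and the cKO libraries reach higher folds within their own lists. Regions that differ only by a peak in both Ythdc1 controls have a like step in median fold.

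The calls did not sit only at the calling threshold. In 522 of the 662 regions (78.9%) all 4 peaks had a −log10 q of at least 10, and the median number of reads at the summit was 70 and 77 in the controls and 106 and 99 in the cKO. The 4 summits lay within 100 bp of each other in 506 regions (76.4%), with a median spread of 40 bp. Neither share was counted for other regions, so they do not rank these calls. In Mettl3 control replicate 1 the median −log10 q was 20.02 for peaks of the 662. It was 20.54 for all lost regions and 80.91 for regions in all 10 lists. In cKO replicate 1 these medians were 38.37, 35.66 and 84.55. The regions were short, with a median of 301 bp and a range of 153 to 3200 bp. A higher fold in both cKO libraries than in both controls was listed for 363 regions (54.8%), and a lower one for 96 (14.5%). These counts set folds of separate lists side by side, and they were not made for other regions.

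Of the 37054 regions that both Mettl3 controls listed, 12.8% were lost, meaning that none of the 4 knockout libraries had a peak, and of regions with a peak in both cKO libraries 27.9% appeared, meaning that neither Ythdc1 control had one. The 662 regions are the overlap. They made up 13.9% of the 4757 lost regions (Wilson 95% interval 13.0 to 14.9) and 6.24% of the 10605 appearing ones. Of all regions in both Mettl3 controls 8.37% appeared in cKO, and of the 21578 kept in all 4 knockout libraries 5.59% did (5.29 to 5.91).

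That order turned around once the Ythdc1 control was taken into account. No Ythdc1 control peak was called at 50.7% of lost regions, against 14.4% of kept regions, although both groups are labelled as controls. Among regions without such a peak, both cKO libraries had one at 662 of 2413 lost regions (27.4%, 25.7 to 29.2) and at 1207 of 3104 kept regions (38.9%, 37.2 to 40.6). Most lost regions therefore fell outside the set: 1515 (31.8%) were in no Ythdc1 list and 1067 (22.4%) in all 4.

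**Figure D2:**
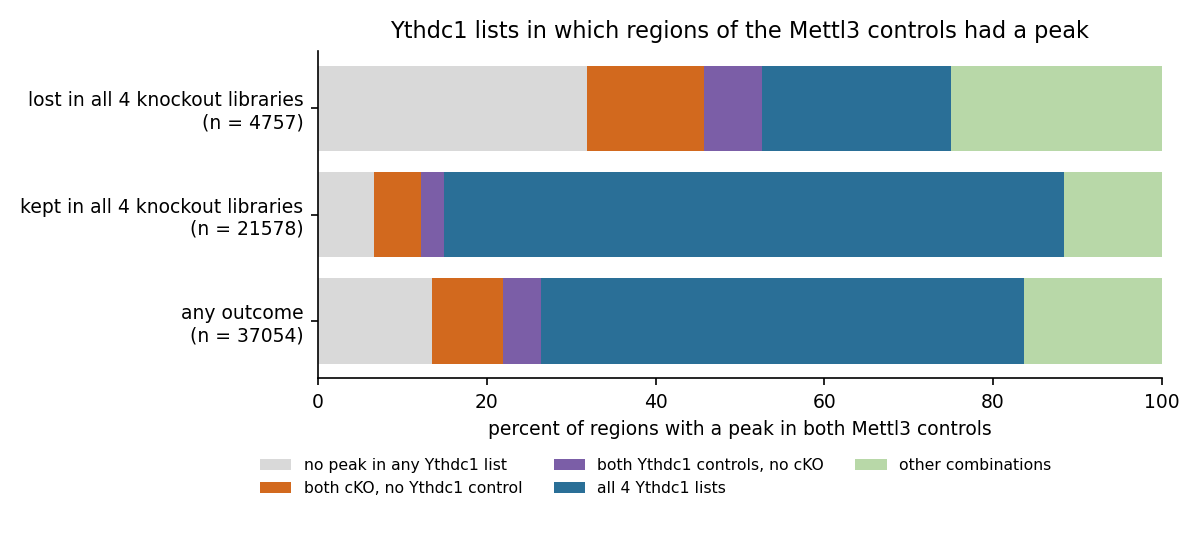
Percent of the regions that both Mettl3 controls listed, by the Ythdc1 lists that also had a peak, for regions lost in all 4 Mettl3 knockout libraries, kept in all 4, and all. The orange block of the lost bar is the 662 regions (13.9%); the grey block, no Ythdc1 list, is 31.8% of lost and 6.60% of kept regions.

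Peak height in the Mettl3 controls moved with this comparison. The regions in both controls were put in 5 equal bins by the smaller of their 2 within-list percentiles of fold. From the lowest bin to the highest, 155, 265, 200, 39 and 3 of the 662 regions fell in each. Among regions without a Ythdc1 control peak, the share with both cKO peaks in the lowest 3 bins was 21.5%, 28.7% and 34.5% for lost regions, and 17.3%, 29.5% and 37.8% for kept ones. In the fourth bin it was 21.8% for lost and 56.0% for kept regions, and in the highest bin 3 of 13 lost regions and 73.7% of kept ones had both. In the lowest 3 bins neither kind of region had the higher share throughout. In the upper bins kept regions had the higher share, and few lost regions lay there.

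The 2 Mettl3 knockouts did not contribute equally to the choice. Of the 3100 regions that appeared in cKO and had a peak in both Mettl3 controls, 1264 had none in KO1 and 843 none in KO2. Both KO2 libraries and no KO1 library had a peak at 305, and the reverse held for 96. The same counts were not made over all regions in both Mettl3 controls. The KO1 lists were shorter as a whole, with 40980 and 41023 peaks against 44515 and 42821 for KO2. They also held fewer intergenic regions, 3410 and 3349 against 5752 and 5168. Whether the gap between the knockouts is particular to these regions was not tested. A further 1680 regions missed the rule by 1 library, most often for want of a peak in replicate 1 (450) or replicate 2 (299) of the Mettl3 control.

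The deposited lists differ in ways that run along the same split. All 4 libraries with a peak at the 662 regions held more intergenic regions, 6640 and 6993 in the Mettl3 controls and 9483 and 9255 in the cKO, than any of the other 6, which ranged from 3349 to 5752. They also covered more genome, 18.8 to 20.5 Mb against 15.3 to 18.7 Mb, and had more peaks, 45313 to 46761 against 40980 to 44515. The most common background of the peak call on the plus strand, whose relation to total reads was not tested, came to 20.03 and 19.27 reads for the cKO, 16.38 and 18.15 for the Mettl3 controls and 14.92 to 17.77 for the others. Their part in the choice of regions was not tested. The targeted genes give no check of the labels here: regions in coding exons of Ythdc1 had a peak in all 10 libraries, cKO included, and the coding-exon region of Mettl3 with a peak in both its controls had none in either KO1 library but one in both KO2 libraries, at folds of 3.63 and 2.65.

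**Figure D3:**
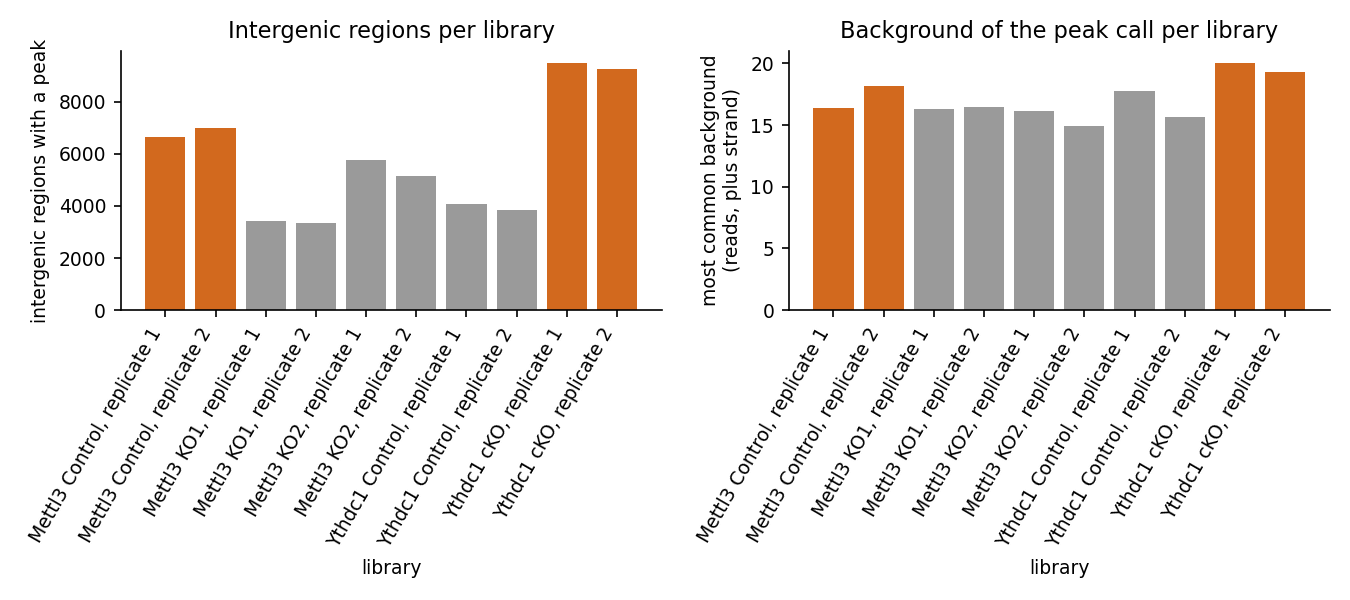
Left, number of merged intergenic regions with a peak in each library; right, most common background of the peak call on the plus strand, in reads. Orange bars are the 4 libraries with a peak at the 662 regions: they have the most intergenic regions (6640 to 9483, against at most 5752), and the cKO libraries have the highest background.

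By the place of the strongest summit, 357 regions (53.9%, 50.1 to 57.7) were intergenic, outside any gene and over 2 kb upstream of any start. Introns held 151 (22.8%), and 83 (12.5%) lay antisense to a gene. Exons held few: 26 regions lay in coding exons, 18 in 3' UTRs, 5 in 5' UTRs and 13 in exons of non-coding transcripts, and 9 were promoter-proximal. The intergenic share was 31.8% of all lost regions and 46.7% of all appearing ones, and 7.59% of regions in all 10 lists. It was 53.5% of the 5580 regions found in the 2 cKO libraries and nowhere else, close to that of the 662. Regions in all 8 lists but the Ythdc1 controls were mostly intronic (66.9%), with 21.8% intergenic.

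**Figure D4:**
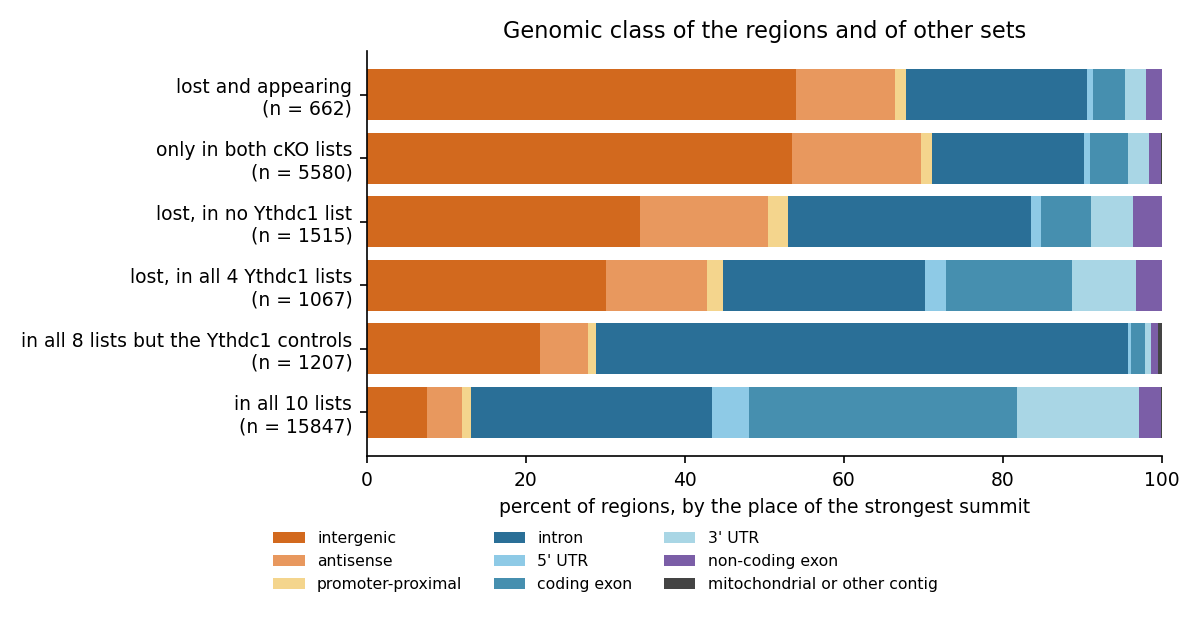
Percent of regions in each genomic class, for the 662 regions and 5 other sets. The top pair of bars, the 662 regions and those only in both cKO lists, have like intergenic shares (53.9% and 53.5%), while regions in all 10 lists have 7.59%.

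Many of the intergenic regions lay far from genes. Their median distance to the nearest gene was 24.5 kb, compared with 29.4 kb for regions only in the cKO lists, 11.6 kb for lost regions in no Ythdc1 list and 7.29 kb for regions in all 10 lists. Of the 357, 95 (26.6%) were over 50 kb from any gene, and 42 (11.8%) lay within 10 kb past the end of a gene on their strand, where read-through transcripts run. The latter share was 42.8% for intergenic regions in all 10 lists. Intron regions sat in long genes, with a median length of 165 kb, compared with 200 kb for regions only in the cKO lists, 161 kb for all appearing regions and 81.1 kb for regions in all 10 lists, and their median distance from the gene start was 61.2 kb. Of the 83 antisense regions, 5 lay within 1 kb of the gene start.

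Their peaks were short, as in lost regions in no Ythdc1 list and in regions only in the cKO lists. Lost regions in all 4 Ythdc1 lists had longer peaks, with medians of 268 bp in Mettl3 control replicate 1 and 367 bp in cKO replicate 1. For regions in all 8 lists but the Ythdc1 controls these were 261.5 and 251 bp. The values of the 662 follow. Median peak length was 179 and 184 bp in the Mettl3 controls and 236 and 245 bp in the cKO. In replicate 1 of the Mettl3 control it was 198 bp for lost regions in no Ythdc1 list and 450 bp for regions in all 10 lists, and in replicate 1 of the cKO it was 218 bp for regions only in the cKO lists and 466 bp for regions in all 10. The caller's background sat at the genome-wide floor for 94.5% of these peaks in each Mettl3 control and for 93.1% and 92.8% in the cKO. In replicate 1 of the Mettl3 control it did so for 86.6% of peaks at lost regions in no Ythdc1 list and 41.4% at regions in all 10 lists, and in the cKO libraries for 91.9% and 92.3% at regions only in the cKO lists. In that Mettl3 control replicate it was 74.5% for lost regions in all 4 Ythdc1 lists. For regions in all 8 lists but the Ythdc1 controls it was 67.8%.

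Of the 662 regions, 64 (9.67%) lay within 10 kb of another, as 32 pairs with no longer run. The share depends on the size of a set. It was 5.62% for the 1067 lost regions in all 4 Ythdc1 lists and 8.78% for the 1207 in all 8 lists but the Ythdc1 controls. For the 1515 lost regions in no Ythdc1 list it was 24.0%, and for the 5580 only in the cKO lists 46.7%. The strand was plus for 358 of the 662, and 12 overlapped a region on the opposite strand, of which 10 had a peak in a Mettl3 knockout or Ythdc1 control library. Other m6A regions did lie nearby. With the 662 themselves left out, there were 1376 on the same strand within 10 kb. Of the 931 with both cKO peaks 529 also appeared (56.8%, 53.6 to 59.97), and of the 569 with both Mettl3 control peaks 114 were also lost (20.04%, 17.0 to 23.5). Over all regions outside the 662 these shares were 26.7% and 11.3%, and within 100 kb of the 662 they were 42.0% and 14.5%. Each set below was likewise left out of its own neighbours, so the shares of different sets have no common base. The 5580 regions only in the cKO lists all appear, so leaving them out lowers the appearing share near them. Within 10 kb of them the shares were 36.5% and 25.9%, and the 36.5% cannot be ranked against the 56.8%. Near lost regions they were 44.5% and 14.3% for those in all 4 Ythdc1 lists, and 15.8% and 12.4% for those in none. Near regions in all 8 lists but the Ythdc1 controls they were 26.2% and 13.0%. Near regions in all 10 lists 30.5% appeared, and the lost share lay inside the interval given for the 662. Regions in all 10 lists can neither be lost nor appear, so leaving them out raises both shares near them. Neither share can be ranked against those near the 662. The 5580 regions had no Mettl3 control peak, so leaving them out does not change the lost share near them. That share, 25.9%, was above the 12.8% over all regions in both Mettl3 controls. A raised lost share was thus not particular to the 662.

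Chromosome X held 55 regions, or 8.31% of the 662 (6.44 to 10.7), and the share of regions in both Mettl3 controls that lay on X was 3.19%. For regions only in the cKO lists it was 8.48%, and for all lost regions 4.14%. Of the regions on X with both cKO peaks, 51.2% appeared, and the 55 made up 27.9% of lost regions on X. Over all chromosomes these shares were 27.9% and 13.9%. None of the 662 lay on the mitochondrial genome or on other contigs, and 5 lay on Y. Whole lists differed on the sex chromosomes too. Peaks on X numbered 1136 and 1053 for Ythdc1 control libraries, 1805 and 1785 for cKO, 1468 and 1496 for Mettl3 controls and 1184 to 1515 for Mettl3 knockouts. Each Ythdc1 control list had fewer than 50 peaks on Y (46 and 48), where every other list had 84 to 101. The part of this difference in the X share was not tested.

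On their own strand, 187 of the 14154 genes with any region held at least 1 of the 662, or 1.32%. They were 159 protein-coding genes, 10 lincRNA genes, 5 annotated antisense RNA genes and some of other types. A single region was found in 166 of them, 17 held 2, 3 held 3 and 1 held 4. The rest of these genes' regions had the same leaning. Of their other regions with both cKO peaks 30.4% appeared, and of all other genes' regions 14.1%. Of their other regions with both Mettl3 control peaks 11.3% were lost, and of those in all other genes 7.96%. Within introns alone the shares were 36.2% against 24.2% and 11.8% against 8.55%. Genes that hold other lost or appearing regions were not compared on their own. The leaning is thus not shown to be particular to the 187 genes.

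Cemip, whose protein binds hyaluronan and is needed for its breakdown, held the most. All 4 of its regions lay in introns of this 154-kb gene on chromosome 7, minus strand, at 81.1, 93.4, 123 and 134 kb from its start. The first (chr7:84005154-84005949) had folds of 5.66 and 5.86 in the Mettl3 controls and 10.6 and 8.90 in the cKO. The last (chr7:83952304-83952530) had the opposite order within the lists, 7.25 and 8.07 in the controls and 5.42 and 5.26 in the cKO. Cemip was not silent in the other libraries. Its intron region at 62.2 kb was in all 10 lists, at folds of 5.95 to 8.15 in the 4 Mettl3 knockout libraries and 11.3 and 12.6 in the Ythdc1 controls. A 3' UTR region at 152 kb had peaks in every library but the 2 of KO1.

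Grin2a, which encodes the GluN2A subunit of the NMDA-type glutamate receptor, held 3 regions in introns on chromosome 16, minus strand, at 12.3, 61.2 and 80.3 kb from its start. The one at 80.3 kb (chr16:9914965-9915375) had folds of 5.42 and 5.20 in the Mettl3 controls and 13.7 and 7.18 in the cKO. Around them lay 14 further regions that appeared in cKO, out of 23 in the gene. Ythdc1 control replicate 1 had no peak anywhere in Grin2a and replicate 2 had 1, while the cKO libraries had 20 and 21. The Mettl3 controls had 9 and 8, KO1 2 and 2, and KO2 4 and 5. Peaks thus differed between the libraries along much of the gene, and not at the 3 regions alone.

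**Figure D5:**
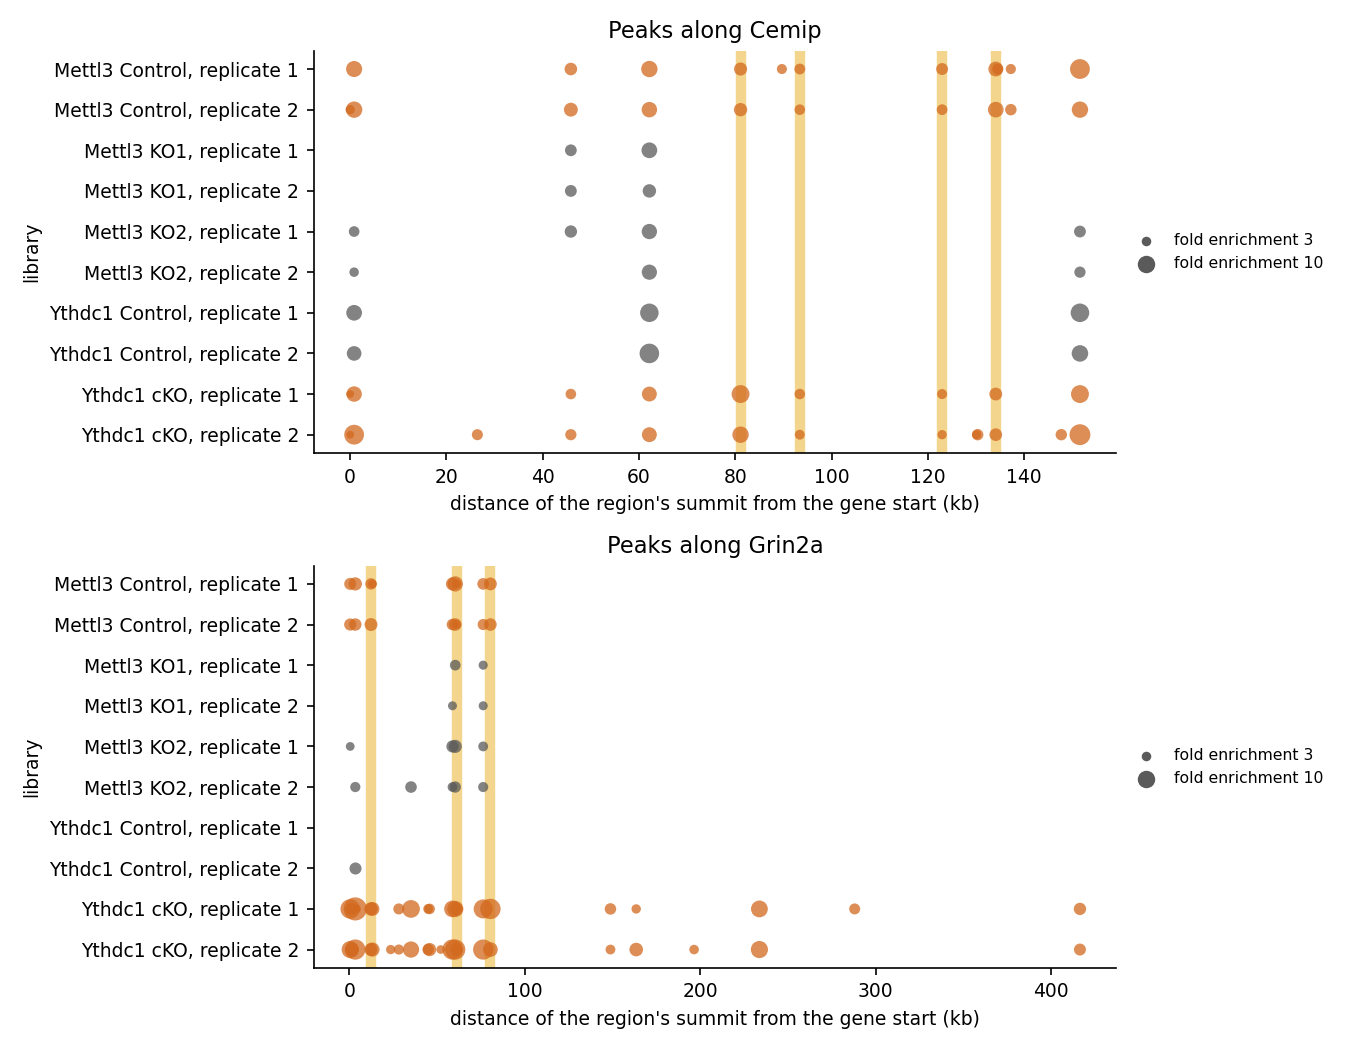
Peaks along Cemip (top) and Grin2a (bottom) in the 10 libraries, by distance of the region's summit from the gene start in kb; point area follows fold enrichment, orange points are the libraries with a peak at the 662 regions, and yellow bars mark those regions. Cemip keeps a peak at 62.2 kb in all 10 libraries, while Grin2a has 1 peak in the 2 Ythdc1 controls together and 20 and 21 in the cKO.

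Tbx18, a T-box transcription factor gene of mesenchymal development, and Lcat, which encodes the enzyme that esterifies cholesterol in plasma lipoproteins, had 2 regions each and no others. Every peak of both genes in the 10 lists was therefore in these regions. The Tbx18 coding-exon region (chr9:87704878-87705840), whose sequence is printed above, had folds of 4.69 and 4.65 in the Mettl3 controls and 8.59 and 6.20 in the cKO. Its 5' UTR region had 4.51 and 4.42, then 6.59 and 6.04. The Lcat coding-exon region (chr8:105939582-105940141) had 5.85 and 4.81 in the controls and 5.88 and 4.50 in the cKO, with no order between the groups. Its intron region had 4.26 and 4.48, then 5.52 and 5.83.

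Other genes among the 10 genes or intergenic runs with the most regions included Onecut2, a transcription factor gene, with 3. Diaph3, an actin-nucleating formin, and Samd12 held 2 each. Diaph3 is long and carries many regions of other kinds, 47 in all, and 12 of these were kept in all 4 Mettl3 knockout libraries. Onecut2 had 7 regions, of which none was kept and 5 appeared in cKO. The 2 runs outside genes were a pair on X near Olfr1323, an olfactory receptor gene, and a pair near AC150274.2, over 100 kb from it. The pair near Olfr1323 had folds of 6.10 and 5.53, then 8.80 and 7.0, in one region, and 3.05 and 4.96, then 5.61 and 5.77, in the other.

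The 20 regions that ranked highest, by the smallest of their 4 within-list percentiles, had folds of 5.23 to 8.53 and 4.98 to 8.07 in the Mettl3 controls, and of 5.42 to 13.7 and 5.26 to 12.1 in the cKO. Of these, 10 were intergenic, 4 intronic, 4 antisense, 1 promoter-proximal (upstream of the small gene Gm23043) and 1 in a coding exon. The coding-exon region ranked first. It lay in Ccser1 (chr6:61313531-61313805, plus strand), a gene of a coiled-coil serine-rich protein, with folds of 7.13 and 6.58 in the Mettl3 controls and 12.1 in each cKO library. These are the 95.4 and 95.2 percentile of the cKO lists, and the 77.1 and 75.4 percentile of the control lists.

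The next was intergenic, 38716 bp from Gm23745 (chr4:53944414-53944626, minus strand), and had the highest fold of the 662 in Mettl3 control replicate 1, 8.53, and in replicate 2 a fold of 8.07, shared with a Cemip region. In the cKO it had 6.70 and 7.26. Other intergenic regions among the 20 lay near Olfr565-ps1, with 6.44 and 6.11 in the controls and 10.03 and 8.73 in the cKO, and near Gm40493, 149682 bp away, with 5.41 and 5.74, then 10.3 and 11.0. The rest lay near Gm8177, Olfr1323, Gm48470, Gm38128, Gm24710, AC124518.1 and 4930441H08Rik. Within introns, besides Cemip and Grin2a, Agbl4, a carboxypeptidase that trims glutamates from tubulin, had 5.47 and 5.53, then 5.52 and 6.71. Of the 20, 12 had a higher fold in both cKO libraries than in both controls, and 3 a lower one.

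The antisense regions among the 20 lay opposite Ccar2, a regulator of the deacetylase SIRT1, Luzp2, Slc1a6 and Cfap161. The region opposite Slc1a6, a glutamate transporter gene (chr10:78809482-78809949, minus strand), had folds of 6.82 and 7.13 in the controls and 5.67 and 5.51 in the cKO. The one opposite Luzp2 had the reverse order, 5.66 and 5.36, then 9.46 and 8.11. Over all lists, 90.6% of peaks with a summit in a coding exon of 1 strand lay on that strand, and the rest lay on the opposite one.

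Stox1, a winged-helix protein gene, had folds of 8.04 and 7.13 in the Mettl3 controls and 4.86 and 5.03 in the cKO, the lower pair in the cKO lists. Sema3c, a secreted semaphorin that guides axons and vessels, had 4.37 and 4.96, then 5.99 and 7.0. Fosl2, a component of the AP-1 transcription factor, held a 3' UTR region (chr5:32152916-32153472) with 5.06 and 5.90, then 6.28 and 6.61. Coding exons of Met, the receptor of hepatocyte growth factor, and of Thbs1, the matrix protein thrombospondin 1, held a region each. Met had 4.89 and 4.91, then 3.28 and 3.85, and Thbs1 2.44 and 4.73, then 3.38 and 2.96. These 5 genes were chosen for mention after their values were seen.

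Of the 7 gene lists examined, 1 held any of the regions, that of long non-coding RNAs known from chromatin or imprinted domains, in 4 of its 18 genes with a region, against 1.32% of all such genes. Over the regions of these genes, 8 of 85 in both Mettl3 controls were lost and 20 of 87 in both cKO libraries appeared, where the shares over all regions were 12.8% and 27.9%. No difference between lists was tested. Xist RNA coats and silences an X chromosome, and Airn, Kcnq1ot1 and Meg3 are transcribed from imprinted domains. The Xist region (chrX:103482059-103482504, minus strand), whose sequence is printed above, lay 1.05 kb from the gene start in a non-coding exon, with folds of 4.51 and 5.97 in the Mettl3 controls and 6.34 and 5.30 in the cKO. A further region of Xist, at 16.9 kb, also appeared in cKO but had a peak in KO1 replicate 1. The remaining Xist region, at 15.8 kb, had peaks in all 4 Mettl3 knockout libraries and in Mettl3 control replicate 2, and none in the cKO. Neither Ythdc1 control had a peak anywhere in Xist. Airn held 2 intron regions, at 62.8 and 82.8 kb, with 2.99 and 3.65, then 5.94 and 5.52, in the first. Of its 27 regions, 10 appeared in cKO. Each KO1 library had a peak at 1 of the 27, and each KO2 library at 8. The Meg3 region had 5.54 and 4.38, then 2.42 and 2.84, and the Kcnq1ot1 region 2.46 and 3.03, then 2.55 and 2.58.

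No region lay in the 9 genes of the m6A writer complex, the 11 readers and erasers or the 18 annotated genes of nuclear RNA decay. None lay in the 25 pluripotency genes, the 40 chromatin regulators or the 20 annotated two-cell-like genes, of which 16 had any region. These lists are small and 1.32% of all genes with a region held one, so the absences carry little weight. The markers of embryonic stem cells were all detected, with a peak in 9 to 12 of 12 genes in each library. No marker of fibroblasts, primitive endoderm, trophoblast, primed epiblast or neural cells held any of the 662, and these lists are small too. Peaks stood in 11 and 11 of the 23 fibroblast markers in the Mettl3 controls, 8 and 8 in the cKO and 6 or 7 in the other libraries. For trophoblast they stood in 7 and 6 of 13 markers in the cKO, 2 and 2 in the Mettl3 controls and 2 to 5 elsewhere. For primitive endoderm they stood in 5 and 5 of 15 markers in the cKO, 4 and 4 in the Mettl3 controls and 3 or 4 elsewhere. Of marker regions with both cKO peaks, 7 of 10 appeared for primitive endoderm, 3 of 7 for trophoblast and 2 of 15 for fibroblasts. For primed epiblast 1 of 7 appeared, and for neural cells 0 of 5. Over all regions the share was 27.9%. The part of such cells in the result was not tested. In all, 13 of the 23 fibroblast markers and 8 of the 13 trophoblast markers had a region in some library, and those without one included Col3a1, Thy1 and Dcn, and Elf5 and Hand1.

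At the edge of the rule, the 5 weakest of the 662 were in 4930519F16Rik, in Radil, near Olfr663, near Cep170b and antisense to Vps33a. The last had folds of 3.19 and 1.87 in the Mettl3 controls and 3.23 and 2.96 in the cKO. Of the 5 strongest that missed by 1 library, the highest lay in an intron of Fgfr2, a fibroblast growth factor receptor gene, at 7.61 and 7.41, then 8.43 and 11.5, with a Ythdc1 control peak of 4.26 in replicate 1. The others lay near Gm23745, 5033404E19Rik and Gm23452 and antisense to Gm8189, each with 1 peak in replicate 1 of the Ythdc1 control or of KO2, at folds of 4.31 to 5.59.

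Several named regions sit in or near families with near-identical copies, such as olfactory receptors, Reg and predicted genes. The sources used here do not say how reads mapping to several places were treated, so their positions are uncertain.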

How the data were processed

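The deposited narrowPeak lists of 10 m6A immunoprecipitations were used; 10 inputs were not analysed here. The tools named for mm10 include HISAT2 2.1.0, Trimmomatic 0.38, MACS2 and CASAVA, per the submitters' processing notes. The sources used here do not give the peak caller's version, its command line or its use of inputs. The authors' deposited values were a display score (10 times the −log10 q), a ratio (fold enrichment at the summit), p- and q-values as −log10, and the summit offset. Peaks were called per library and strand, as the deposited strand column shows, on unknown total depth. The authors' deposited folds were ranked within lists. They also chose the strongest summit of a region across lists, and folds of the 2 groups were set side by side. As the lists were made separately, the order of folds between them shows no change in m6A.

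Peaks of the 10 lists were merged per strand where they shared 1 bp, with Python 3.11.15, pandas 2.3.3, numpy 2.4.6 and scipy 1.17.1. Regions were placed by their strongest summit in GENCODE M21, whose GRCm38 assembly is that of mm10, taking exon classes before introns, then antisense, promoter-proximal (2 kb upstream) and intergenic. Reads at the summit and the background were solved from fold and p under a Poisson model, and 100% of 431836 peaks matched a whole number of reads within 0.002; the rest, with a −log10 p over 290, were left out of that step. Merging and solving were tested on simulated data. Groups follow the labels' titles. No test was made, as the rule used all 10 libraries; shares have Wilson 95% intervals for counting error only.

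The regions, gene lists and comparisons were chosen with earlier results of these data known. Named were the 20 regions highest by their smallest within-list fold percentile, the 10 genes or 10-kb intergenic runs with the most regions, genes of the lists, Mettl3, Ythdc1, and 5 regions to each side of the rule. One gene that the rule names is not reported here. Alternatives changed the merging, the q threshold, the list length, the absence distance and the libraries. No genome sequence was used, so intronic and intergenic sequence and repeats were not analysed here.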

Additional observations from a re-analysis of the deposited data

How the results depend on the processing

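The number of regions was 506 to 667 under the alternatives that kept all 10 libraries, each within 1.5 times of 662. It was 507 with lists cut to 40980 peaks and 506 when the 4 summits had to lie within 100 bp, a setting chosen after seeing the data. Leaving out 1 library in turn gave 696 to 1115, the highest without Mettl3 control replicate 1, which moved the count by over 1.5 times. The share of lost regions that met the rule was 13.9%, 12.5% with regions rebuilt from summits, and 13.4% to 17.4% without 1 library. The intergenic share was 53.9%, and 49.4% to 55.9% without 1 library; it kept within its interval under the other alternatives. The share within 10 kb of another was 9.67%, and 9.14% to 12.9% without 1 library. It was 5.13% with lists cut to one length, 6.92% when absence needed 500 bp free of peaks, 6.65% for a distance of 2 kb and 13.1% for 50 kb. Without the sex chromosomes, also chosen after seeing the data, 602 regions remained and the shares moved within their intervals. No paired analysis was possible because the results come from no test. With 2 libraries a group and no totals of reads, a missing peak may still be one too weak to call.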
